A study of Aspergillus nidulans with 4 samples.

Results

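The 87 genes described here are peptidases, proteases and genes annotated beside them in the mould Aspergillus nidulans, out of 7752 genes with sense reads in the deposited tables. They were chosen by words. A gene was a member where its deposited description held the word peptidase or protease, or where it was prtA, dppIV or dppV. Descriptions that spoke of the proteasome, of ubiquitin or of an inhibitor were left out, as was the regulator xprG. In 5 members, creA, xprF, hxkC, vps24 and pigP, the description mentions a protease but the product itself is something else. These 5 were set apart after the descriptions had been read, which leaves 82 members described as peptidases. Of the 87, 16 carry a name in the deposited tables, 8 take one from RefSeq (assembly ASM1142v1) and 63 are given by identifier only. Genes without a description, 323 in all, could not be found by such a rule.

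The study grew 1 strain on media that differ in carbon and nitrogen source, and sequenced 1 strand-specific RNA library per medium. All libraries come from mycelium of genotype biA1, a mutation that makes the mould need biotin, so no library lacks it. Each library was made from RNA of 3 cultures mixed together, grown in minimal medium at 37 °C for 9 to 12 h. With 1 library per medium there is no replicate check, no condition was tested, and "higher" and "lower" describe these libraries. The media were 0.1% fructose with urea, 0.1% fructose with 10 mM ammonium tartrate, 1% glucose with urea, and 1% glucose with 10 mM ammonium tartrate. Urea is given as 10 mM with the samples and as 5 mM in the growth protocol. The kind and the amount of sugar change together, and tartrate is present only beside ammonium, so neither pair can be told apart. The submitters call glucose and ammonium repressing and fructose and urea non-repressing, and the comparisons ask how transcripts follow each source at a fixed level of the other. In such bulk samples, fewer cells of a type and less RNA per cell cannot be told apart.

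Moulds use protein as food by secreting endopeptidases, which cut within a chain, and exopeptidases, which remove residues or short peptides from its ends. In Aspergillus, secreted proteases are known to be held down by preferred carbon, nitrogen and sulfur sources and to be controlled by ambient pH and by starvation. Other peptidases stay inside the cell, where they recycle protein in the vacuole, guard protein quality in mitochondria or remove signal peptides at the endoplasmic reticulum. Serine, aspartic, cysteine and metallopeptidases are named after the group that carries out catalysis, and dipeptidyl-peptidases after the piece they release.

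By words in the descriptions, 18 members were serine, 11 aspartic, 20 metallo, 4 dipeptidyl and 6 cysteine peptidases, and 23 were peptidases of no stated catalytic type. The unstated group includes enzymes whose description names the reaction only, such as the carboxypeptidases cpyA and cp1 and the trypsin-like AN2366. Classes follow the deposited wording, which was not checked in any other way. Members filed as dipeptidyl or unstated may share a catalytic type with those of another class. All 4 libraries gave a count for 81 members, and 77 were listed in every sense table. AN5432 and AN6686, with at most 7 and 8 counts in a library, were below the minimum on abundance in each comparison that lists them.

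Depth set the precision. Over the genes listed, the sense counts came to 812637 for fructose with urea, 547041 for fructose with ammonium, 1698692 for glucose with urea and 2606076 for glucose with ammonium. CPM, the usual per-library scaling of counts, is taken here over these sums, is not corrected for gene length, and is compared only within a gene. A count of 0 allows up to 3 counts, which is 3.69 CPM in fructose with urea, 5.48 CPM in fructose with ammonium, 1.77 CPM in glucose with urea and 1.15 CPM in glucose with ammonium. Markers of other cell types differed between libraries: in the same order of libraries, the 4 conidiation genes found of 11 listed summed to 799, 64.0, 28.3 and 31.8 CPM and the 5 sexual-development genes to 2916, 773, 394 and 357 CPM. In fructose with urea, ivoB made up 636 CPM of the first sum and cpeA 2161 CPM of the second. Not all markers shared this order: nsdD was lowest in fructose with urea, at 41.8 CPM. The counts of wA, 4 (4.92 CPM) in fructose with urea and 7 (12.8 CPM) in fructose with ammonium, were too few to give an order. The conidiation regulator brlA had 16 counts in fructose with urea, 3 in fructose with ammonium and 0 in glucose with urea, and the vegetative genes actA, benA and tubC summed to 1573, 3228, 3864 and 3956 CPM. The part of these other cell types in the values below was not tested.

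The members took 2.59% of sense counts in fructose with urea, 1.81% in fructose with ammonium, 1.04% in glucose with urea and 1.03% in glucose with ammonium. The exact 95% Clopper-Pearson intervals of these shares were 2.56% to 2.63%, 1.78% to 1.85%, 1.03% to 1.06% and 1.02% to 1.05%. These and all intervals below cover counting error only, since no medium has a replicate. They may be too narrow even for that, since amplified reads are not independent molecules. Summed over members, the share was thus largest where both sources were non-repressing. The nitrogen source separated the sums beyond these intervals only in fructose.

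The 5 members with the most counts in fructose with urea were the serine protease AN10030, the metallodipeptidase AN3459, the aminopeptidase AN8445, dppIV and prtA. They held 44.5% of the members' counts there, 21.4% in fructose with ammonium, 18.9% in glucose with urea and 16.6% in glucose with ammonium, a description only, since they were picked on that library. Without these 5, the members took 1.44% of sense counts in fructose with urea and 1.43% in fructose with ammonium. In glucose the remaining share was 0.844% with urea and 0.863% with ammonium. Leaving out members picked on fructose with urea tends to lower that share most, so these remainders too are a description only. Of the 81 members with 4 counts, 41 (50.6%) had their highest CPM in fructose with urea, against 40.1% of all genes.

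**Figure D1:**
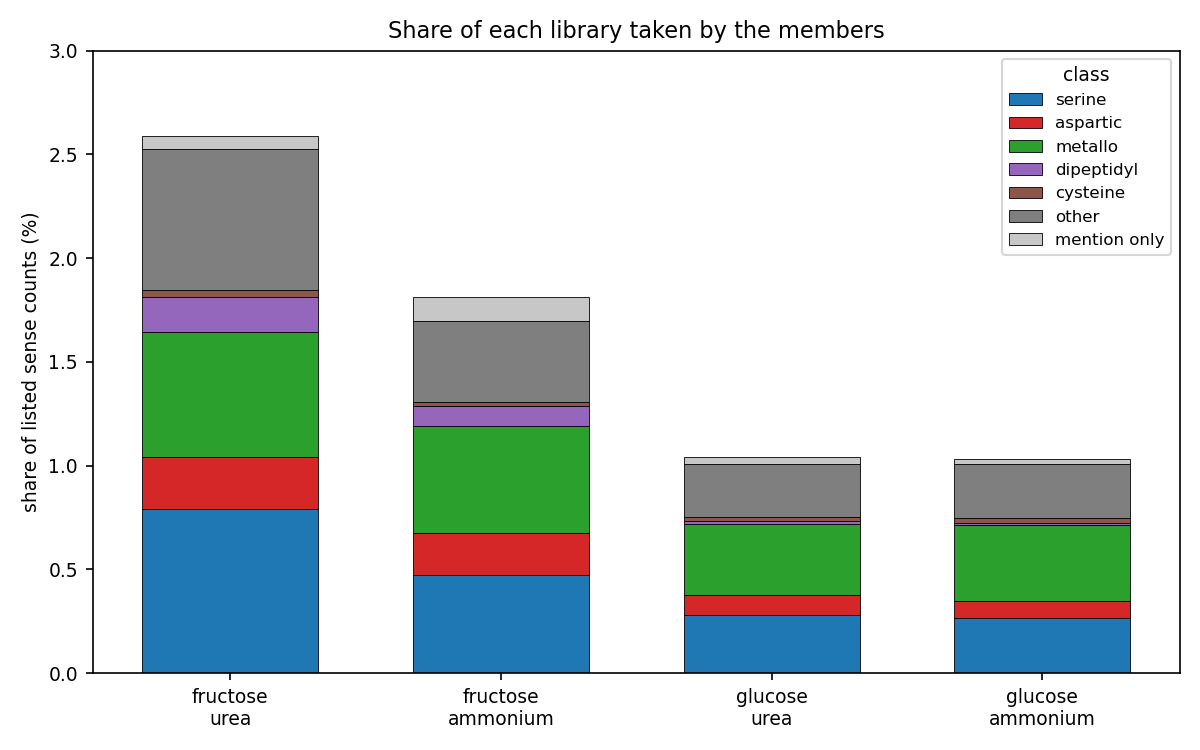
Share of listed sense counts taken by the members in each library, in percent, stacked by class. The full bars reach 2.59% in fructose with urea, 1.81% in fructose with ammonium, 1.04% in glucose with urea and 1.03% in glucose with ammonium.

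The summed shares of the classes differed in size of change, and single genes weighed heavily in them. In fructose with urea, dppIV held 1087 of the 1355 dipeptidyl counts and AN10030 3732 of the 6436 serine counts. AN3459 held 1919 of the 4879 metallo counts there. Serine peptidases took 0.792% of counts in fructose with urea, 0.471% in fructose with ammonium, 0.282% in glucose with urea and 0.267% in glucose with ammonium. Dipeptidyl-peptidases took 0.167%, 0.0971%, 0.0162% and 0.0112% in the same libraries. Aspartic peptidases took 0.252%, 0.202%, 0.0951% and 0.0801%. The metallopeptidases were the flattest of the 4 classes, with 0.600%, 0.515%, 0.342% and 0.366%.

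In both nitrogen sources, among the highest carbon ratios were those of AN8445, dppIV, pepAa, prtA, AN2366 and, in ammonium, dppV. Ratios are given as log2 of fructose over glucose with their 95% counting interval, and a gene was counted as different at 4-fold or more where the authors' deposited mean was at least 3 on the log2 CPM scale. In urea, 13 of 82 members past that minimum were at least 4-fold higher in fructose, which is 15.9% against 14.6% of all genes, and 5 were at least 4-fold lower, which is 6.10% against 15.2%. In ammonium, 9 of 80 were higher, against 8.33% of all genes, and 6 were lower, which is 7.5% against 7.01%. At a 2-fold mark, 32 were higher and 18 lower in urea, against 27% and 29.2% of all genes, and 19 were higher and 12 lower in ammonium, against 19.2% and 22.6%. The shares of members called higher at 4-fold thus lay near those of all genes in urea, and somewhat above them in ammonium, where the calls include hxkC, which only mentions a protease. The median ratio was 0.55 in urea and 0.19 in ammonium over the members, and -0.03 in urea and -0.11 in ammonium over all genes tested. Without the 5 genes that only mention a protease, 13 of 77 (16.9%) were higher and 5 (6.49%) lower in urea. In ammonium 8 of 75 (10.7%) were then higher and 6 (8%) lower. The medians of that set were 0.59 in urea and 0.09 in ammonium.

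The alkaline protease prtA, a secreted enzyme of broad specificity known to be under carbon, nitrogen and sulfur repression, had 776 counts (955 CPM) in fructose with urea, 194 (355 CPM) in fructose with ammonium, 42 (24.7 CPM) in glucose with urea and 82 (31.5 CPM) in glucose with ammonium. Both fructose libraries were high and both glucose libraries low. Its carbon ratio was 4.96 (4.55 to 5.49) in urea and 3.43 (3.07 to 3.84) in ammonium. Its nitrogen ratio, urea over ammonium, was 1.23 (1.00 to 1.46) in fructose and -0.29 (-0.87 to 0.26) in glucose, where the interval spans 0. In the authors' deposited table the FDR of prtA was 1.42e-09 for carbon in urea and 0.157 for nitrogen in fructose, both resting on a spread between cultures that was assumed.

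Most other members worded as serine did not share this range. The predicted serine-type peptidase AN7231 had 448 CPM in fructose with urea and 272 CPM in fructose with ammonium. In glucose it had 84.2 CPM with urea and 50.7 CPM with ammonium. It was the only other member worded as serine that was at least 4-fold higher in fructose under both nitrogen sources. Its ratios were 2.13 (1.86 to 2.43) in urea and 2.37 (2.04 to 2.73) in ammonium. AN10030, a putative alkaline protease with a predicted membrane anchor (GPI), drew the most counts of any member in each library, a figure that gene length also sets: 3732, 1036, 2489 and 3331 in fructose with urea, fructose with ammonium, glucose with urea and glucose with ammonium. Its carbon ratio was 1.38 (1.31 to 1.45) in urea and 0.52 (0.42 to 0.62) in ammonium, so its abundance went with a modest change. The ATP-dependent serine peptidase AN0122 had 808, 1472, 563 and 499 CPM in that order, highest in fructose with ammonium, with carbon ratios of 0.25 (0.11 to 0.40) in urea and 1.52 (1.39 to 1.64) in ammonium. The prolyl aminopeptidase papA was at 0.29 in urea and 0.07 in ammonium. The kexin-like processing protease kpcA stayed level, with 236, 207, 204 and 225 CPM in that order, and every interval of its 4 ratios spanned 0. The median of the serine members was 0.40 in urea and -0.11 in ammonium, where it was 0.00 with a joint scaling of the libraries.

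Both dipeptidyl-peptidases with names, which take dipeptides from the amino end of a chain, followed the carbon source, each in its own way. For dppIV there were 1087 counts (1338 CPM) in fructose with urea, 269 (492 CPM) in fructose with ammonium, 48 (28.3 CPM) in glucose with urea and 57 (21.9 CPM) in glucose with ammonium. This is the order of prtA for the fructose libraries, with carbon ratios of 5.26 (4.88 to 5.75) in urea and 4.41 (4.03 to 4.89) in ammonium. For dppV there were 159 counts (196 CPM) in fructose with urea, 218 (399 CPM) in fructose with ammonium, 78 (45.9 CPM) in glucose with urea and 27 (10.4 CPM) in glucose with ammonium. Here fructose with ammonium was highest, and the carbon ratio was 1.81 (1.42 to 2.23) in urea and 5.14 (4.64 to 5.86) in ammonium. The predicted dipeptidyl aminopeptidase AN11903 went the other way in urea, with 4 counts in fructose against 91 in glucose and a ratio of -3.49 (-5.62 to -2.31). The remaining member of the class, AN10540, had carbon ratios of 1.63 in urea and 0.67 in ammonium.

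**Figure D2:**
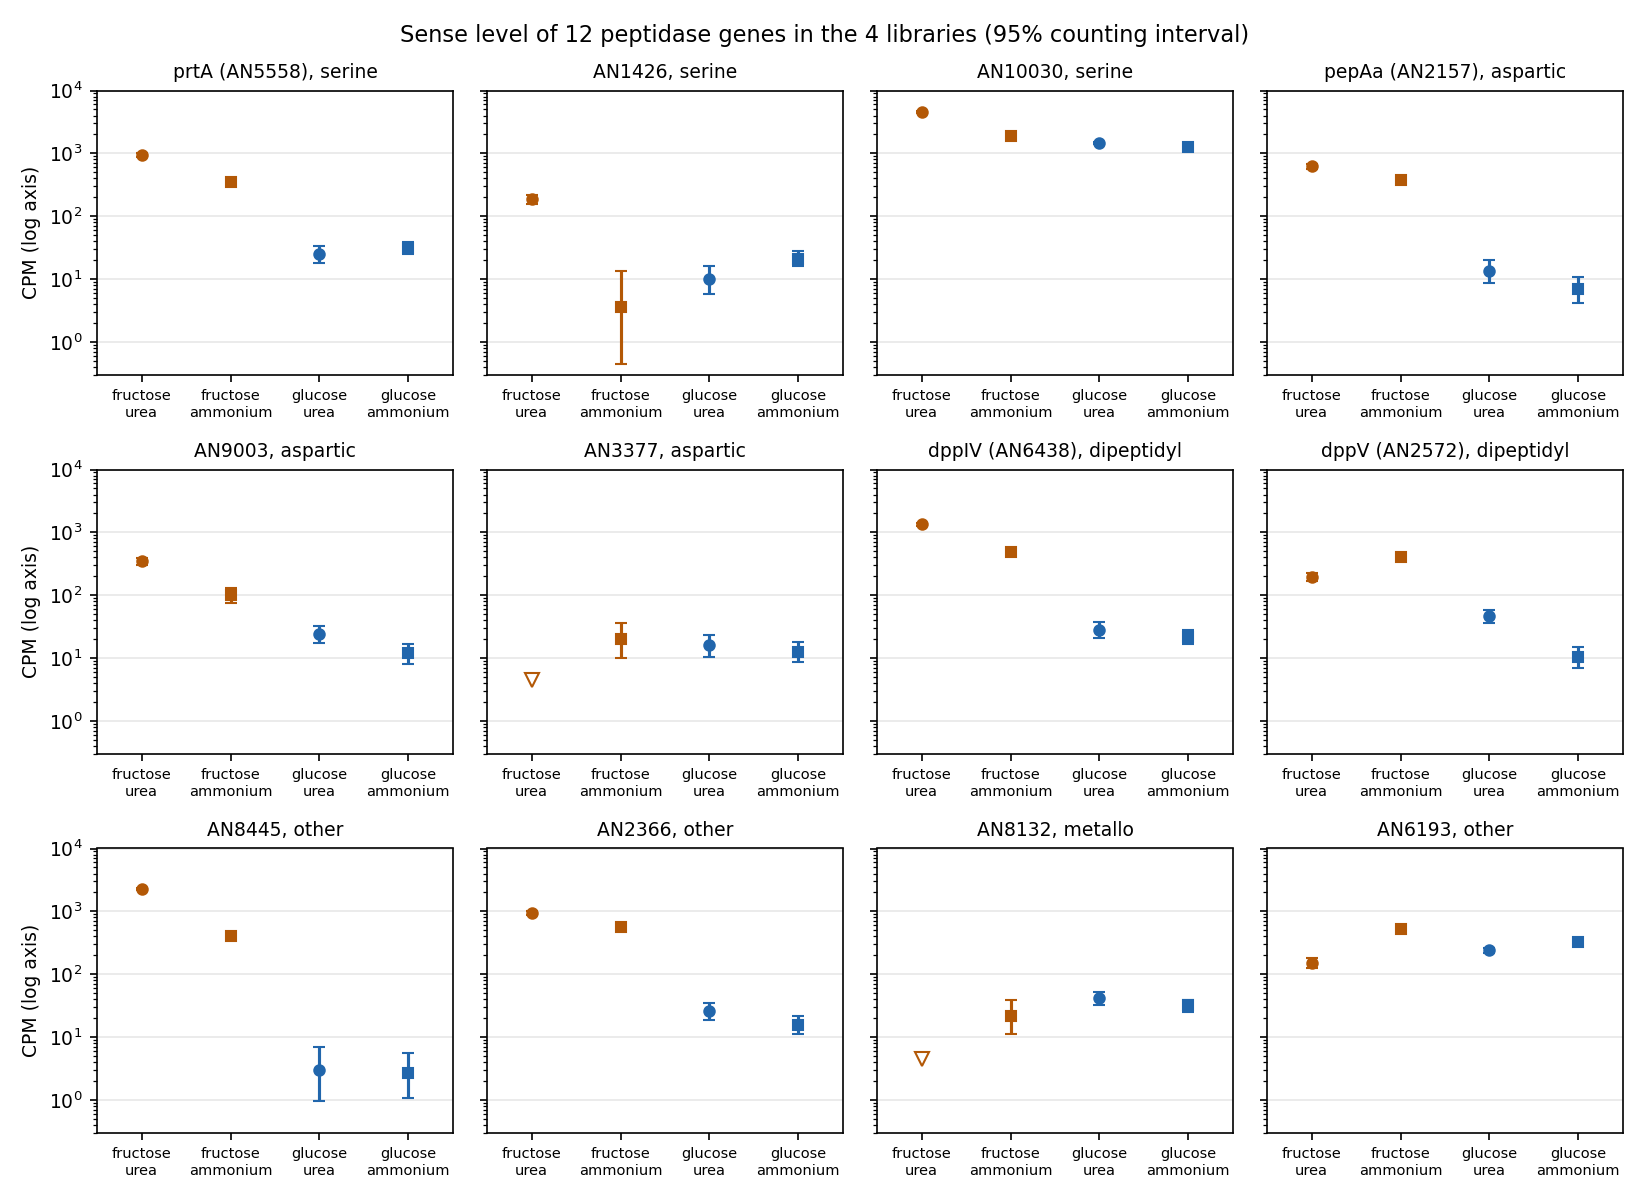
CPM of 12 members in the 4 libraries, on a log axis, with fructose in orange, glucose in blue, urea as circles and ammonium as squares, 95% Poisson intervals of the count as bars and an open triangle at the upper limit where the count was 0. The prtA and dppIV points fall in the order fructose with urea, fructose with ammonium and then both glucose libraries, while dppV is highest in fructose with ammonium at 399 CPM.

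Among aspartic endopeptidases, the acid proteases of moulds, pepAa had the clearest carbon pattern, with 506 counts (623 CPM) in fructose with urea, 203 (371 CPM) in fructose with ammonium, 23 (13.5 CPM) in glucose with urea and 18 (6.91 CPM) in glucose with ammonium. Fructose over glucose, pepAa stood at 5.18 (4.65 to 5.93) in urea and 5.58 (5.01 to 6.49) in ammonium. AN9003 resembled it at lower counts, 281, 55, 41 and 31 in the same order, with ratios of 3.53 (3.10 to 4.08) in urea and 2.97 (2.38 to 3.72) in ammonium. The predicted GPI protein AN1573 passed 4-fold in urea alone, at 2.66 (2.27 to 3.11), against 0.93 (0.41 to 1.45) in ammonium.

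The other named aspartic genes had smaller ratios. For pepE, described as an aspartic protease, there were 742 CPM in fructose with urea, 342 in fructose with ammonium, 161 in glucose with urea and 130 in glucose with ammonium, and the carbon ratio was 1.93 (1.73 to 2.14) in urea and 1.34 (1.08 to 1.61) in ammonium. The pepsin-like pepAc had 237, 834, 462 and 257 CPM in the same libraries, so it was highest in fructose with ammonium and lowest in fructose with urea. On the carbon axis it stood at -1.22 in urea, with an interval wholly below 0, and at 1.65 (1.48 to 1.83) in ammonium. The GPI-type pepAd was within 2-fold in both, at 0.68 and 0.34. AN3377, with a predicted aspartic domain, had 0 counts in fructose with urea against 27 in glucose with urea, at least 5.19-fold lower, and 11 in fructose with ammonium against 33 in glucose with ammonium. The class median was 1.03 in urea and 0.76 in ammonium, the highest of the peptidase classes after the dipeptidyl-peptidases, whose medians were 1.72 and 2.54.

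In the metallo class, 3 of 19 members (15.8%, against 14.6% of all genes) were at least 4-fold higher in fructose under urea. Under ammonium 0 of 17 were, against 8.33% of all genes, and with so few members neither count sets the class apart. AN3959, a predicted metalloendopeptidase, had 41 counts in fructose with urea against 0 in glucose with urea, at least 23.7-fold higher, and 14 in fructose with ammonium against 1 in glucose with ammonium. Its ratio in ammonium was 4.65 (3.30 to 11.42), and it was left out of that count because its deposited mean, 2.996, was just under the minimum of 3. The metallocarboxypeptidase cps1 had 49 counts in fructose with urea, 1 in fructose with ammonium and 4 in glucose with urea, so it stood out in a single library; no count was given for glucose with ammonium. The third was AN3459, whose orthologs break down glutathione, with 2361 CPM in fructose with urea, 744 in fructose with ammonium, 449 in glucose with urea and 378 in glucose with ammonium. The carbon ratio of AN3459 was 2.13 (2.01 to 2.25) in urea and 0.93 (0.76 to 1.10) in ammonium.

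The metallo aminopeptidase AN0369 was highest in fructose with ammonium, with 940 CPM in fructose with urea, 1768 in fructose with ammonium, 629 in glucose with urea and 505 in glucose with ammonium, and had ratios of 0.31 (0.18 to 0.45) in urea and 1.76 (1.64 to 1.88) in ammonium.

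The opposite metallo pattern was in AN8132, a predicted zinc metalloendopeptidase placed in the extracellular matrix, with 0 counts in fructose with urea, 12 in fructose with ammonium, 71 in glucose with urea and 83 in glucose with ammonium. It was at least 13.6-fold lower in fructose than in glucose under urea, and its ratio under ammonium was -0.57 (-1.59 to 0.30). AN8044, whose orthologs mature peptide pheromone, had 166 CPM in fructose with urea, 673 in fructose with ammonium, 489 in glucose with urea and 631 in glucose with ammonium, lowest beside urea in fructose. The word extracellular was thus shared by genes at both ends: prtA at 4.96, AN1638 at 0.17 and AN8132 at the low end in urea. Annotated site and carbon ratio did not go together in these 3 genes.

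Of the peptidases with no stated type, the aminopeptidase Y AN8445 had the largest carbon ratios of all members: 1853 counts (2280 CPM) in fructose with urea, 218 (399 CPM) in fructose with ammonium, 5 (2.94 CPM) in glucose with urea and 7 (2.69 CPM) in glucose with ammonium. The ratio was 9.00 (8.10 to 10.95) in urea and 6.87 (6.10 to 8.50) in ammonium, and rests on few glucose counts. AN2366, described as a trypsin-like protease that cleaves NmrA, the partner that holds the nitrogen regulator AreA in check, had 927 CPM in fructose with urea, 561 in fructose with ammonium, 25.9 in glucose with urea and 15.7 in glucose with ammonium. Its ratio was 4.85 (4.45 to 5.37) in urea and 5.06 (4.64 to 5.62) in ammonium. The carboxypeptidase Y gene cpyA, for a vacuolar enzyme in yeast, had a ratio of 1.28 in urea and 0.61 in ammonium, and the carboxypeptidase cp1, described as induced in starvation-induced autophagy, 1.15 and 0.91.

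The 2 carbon comparisons have no library in common. Of 78 members that both could count, 7 reached 4-fold higher in fructose each time: pepAa, AN2366, prtA, dppIV, AN7231, AN8445 and AN9003. They make up 63.6% of the 11 higher in urea and 77.8% of the 9 higher in ammonium, and over all genes the shared calls were 48.8% and 65.8% of each list. Of those lower, 5 in each comparison, none was shared, and over all genes the shared calls were 14.4% of the list in urea and 34.7% of the list in ammonium. The 5 lower in urea were AN8132, AN3377, AN11903, the tripeptidyl-peptidase AN7159 and AN1780.

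**Figure D3:**
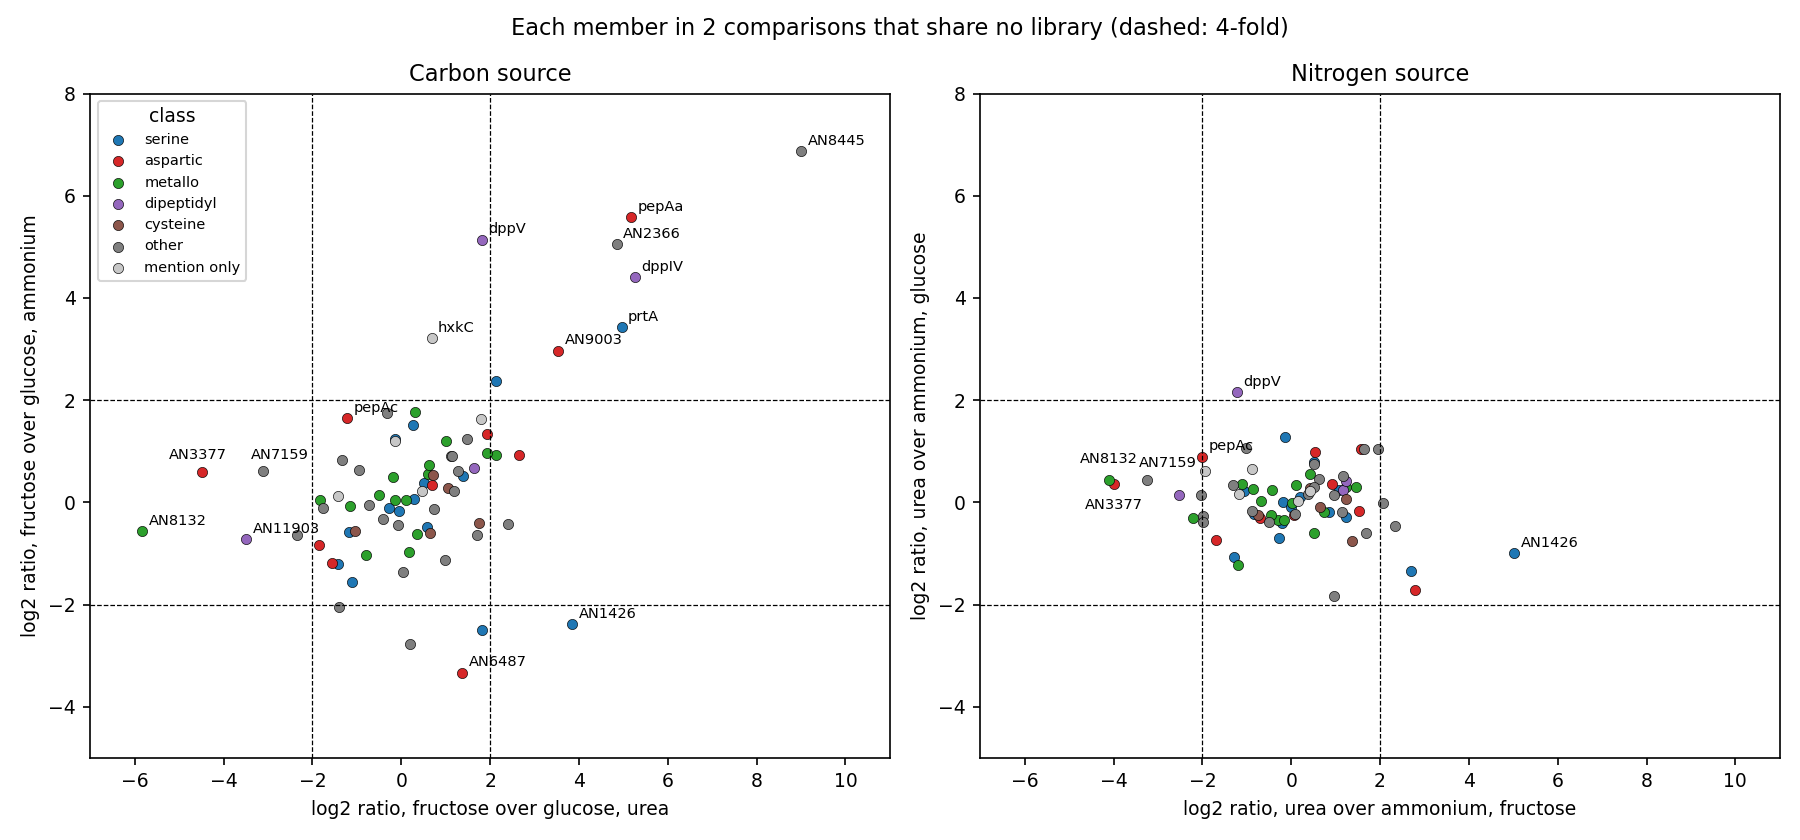
Log2 ratios of each member in the pairs of comparisons that share no library, fructose over glucose at left (urea across, ammonium up) and urea over ammonium at right (fructose across, glucose up), coloured by class, with dashed lines at 4-fold. At left, prtA, dppIV, pepAa, AN2366, AN9003 and AN8445 lie past 4-fold on both axes and AN1426 lies past it in opposite directions; at right, no member is past 4-fold on both.

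In fructose, the change of nitrogen source moved members both ways, while in glucose nearly all lay within 2-fold. Ratios are urea over ammonium. In fructose, 8 of 84 members (9.52%) had a ratio of 4-fold or more in favour of urea, against 11.4% of all genes, and 7 (8.33%) were at least 4-fold lower, against 11%. With counts scaled by totals, which moved the median of all genes by 0.19, the split was 9 higher and 5 lower. In glucose, 1 of 79 was higher (1.27%, against 1.34% of all genes) and 0 were lower, against 0.535%, and 68 lay within 2-fold. At a 2-fold mark, 23 members were higher and 19 lower in fructose, against 26% and 23.5% of all genes, and 6 were higher and 5 lower in glucose, against 7.15% and 4.31%. The 4-fold shares lay near those of all genes. The median ratio was 0.28 over the members and 0.07 over all genes in fructose, and 0.06 over the members and -0.00 over all genes in glucose.

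Of 4 members described as carboxypeptidases, AN1426 and cps1 passed 4-fold in favour of urea in fructose, while cpyA was at 1.16 and cp1 at 0.37. AN1426, whose orthologs are serine carboxypeptidases, had 151 counts in fructose with urea, 2 in fructose with ammonium, 17 in glucose with urea and 55 in glucose with ammonium. Its nitrogen ratio was 5.03 (3.59 to 8.53) in fructose and -0.99 (-1.90 to -0.22) in glucose. The metallocarboxypeptidase cps1 followed with 4.08 (2.30 to 10.18), and AN8445 had 2.31 (2.11 to 2.53). In each of them, as in AN10351, a vacuolar aminopeptidase at 2.06 (1.40 to 2.87), fructose with urea was the highest library. Just short of 4-fold was lap1, with a predicted peptidase domain, at 1.96 (1.31 to 2.75).

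Like AN1426, with 2 counts, and cps1, with 1, the other 4 members higher in urea rest on 0 to 3 counts in fructose with ammonium. These were AN6487, an aspartyl protease whose yeast ortholog BAR1 destroys mating pheromone, with 31 counts against 2, AN4286 with 18 against 1, AN11133 with 31 against 3 and AN1320 with 15 against 0. AN1320, with a predicted serine peptidase domain, is only bounded at 2.93-fold or more, below the 4-fold mark. With a prior count of 5 in place of 1, the number higher in fructose was 3 (AN1426, cps1 and AN8445) and the number lower was 3.

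Lower in urea than in ammonium in fructose were AN8132, with 0 counts against 12, AN3377, with 0 against 11, AN7159, AN11903, AN8044, AN1144 and pepAc. The tripeptidyl-peptidase AN7159 had 11 counts in fructose with urea, 67 in fructose with ammonium, 174 in glucose with urea and 203 in glucose with ammonium, with a nitrogen ratio of -3.24 (-4.45 to -2.45) in fructose and 0.44 (0.15 to 0.75) in glucose. AN8044 was at -2.21 (-2.51 to -1.93) in fructose. AN8132, AN3377, AN7159, AN11903, AN8044 and AN1144 were lowest in fructose with urea, and pepAc, at 4.01-fold lower in urea (log2 interval -2.26 to -1.77), was highest in fructose with ammonium. The calls of pepAc and AN1144 were lost when counts were scaled by totals.

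In glucose, dppV was the single member past 4-fold, with 78 counts in urea against 27 in ammonium and a ratio of 2.15 (1.55 to 2.89). With a prior count of 5 its ratio was 1.97, below the mark. Its ratio in fructose was -1.22 (-1.53 to -0.93). The next highest in glucose was the predicted serine peptidase AN7987 at 1.27 (0.74 to 1.86), and the lowest were AN8498 at -1.84 (-2.48 to -1.30) and AN6487 at -1.73 (-2.53 to -1.07). For prtA, dppIV, kpcA, cym1 and cpyA the ratio in glucose was -0.29, 0.41, -0.09, -0.24 and 0.51.

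The difference of the nitrogen ratios, fructose minus glucose, has no spread to be tested against. Over 78 members its median was 0.09, with 8 members (10.3%) at 2 or more and 9 (11.5%) at -2 or less, against 7.12% and 12.5% of 6024 genes. The largest positive values were 6.02 for AN1426, 4.51 for AN6487, 4.03 for AN4286, and 2.81 for AN8498 and AN11133. The most negative were -4.55 for AN8132, -4.36 for AN3377, -3.68 for AN7159, -3.37 for dppV and -2.90 for pepAc, of which AN8132 and AN3377 rest on a count of 0.

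**Figure D4:**
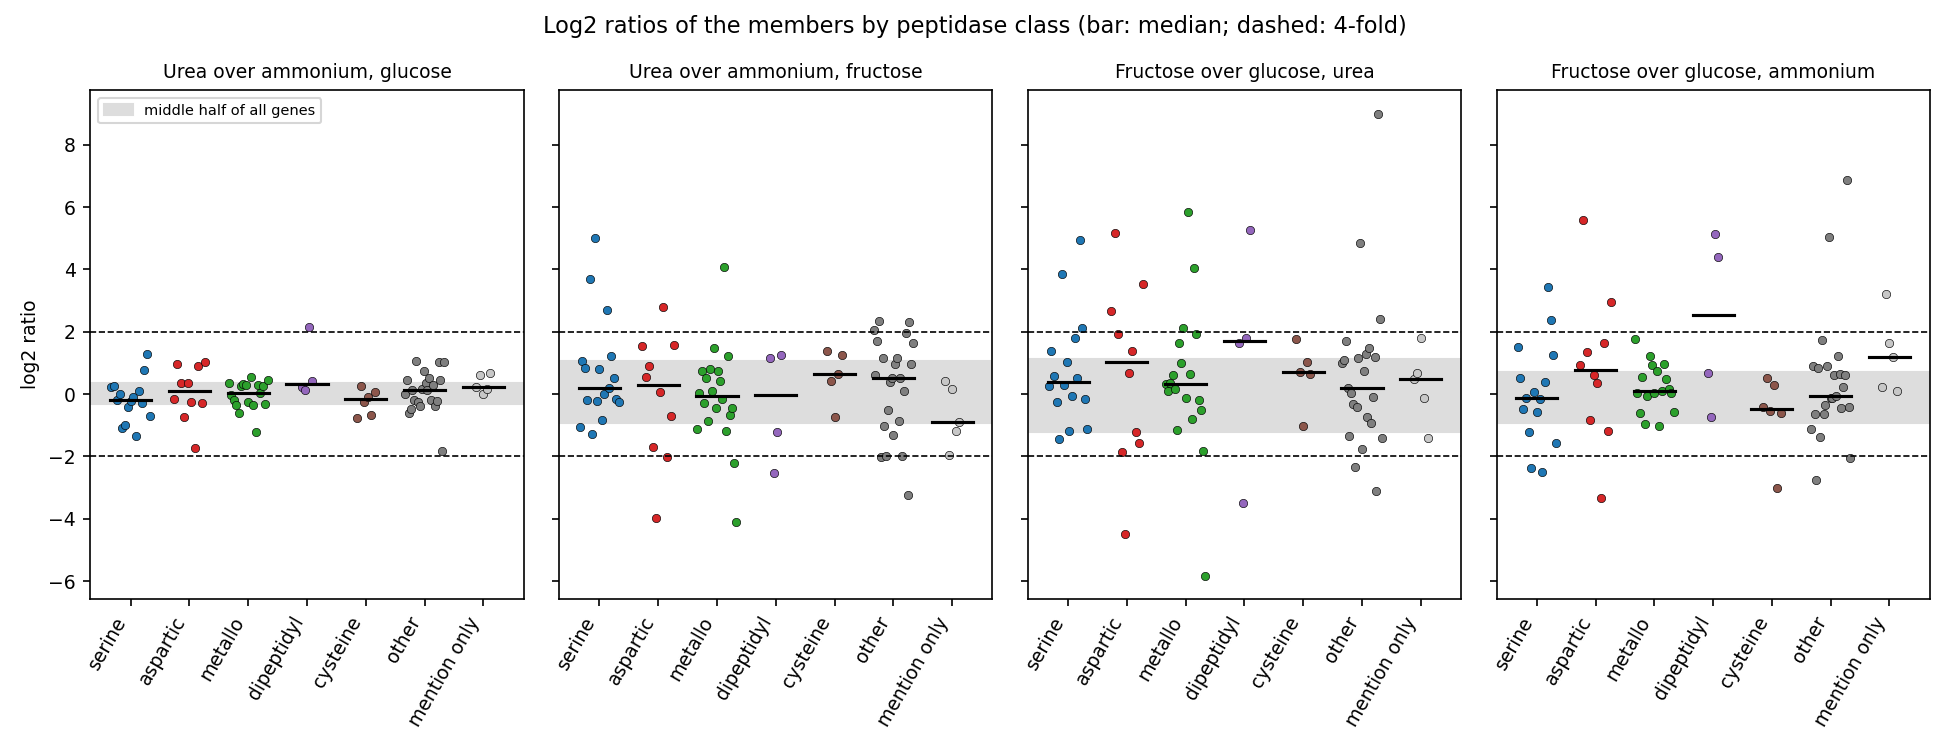
Log2 ratio of every member past the minimum in each comparison, by class, with the class median as a bar, a grey band between the quartiles of all genes and dashed lines at 4-fold; genes that only mention a protease have a column of their own. The points of nitrogen in glucose stay closest to 0, with 1 past 4-fold, and the dipeptidyl-peptidases have the highest carbon medians, 1.72 in urea and 2.54 in ammonium.

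Several members are annotated to sites inside the cell. The 10 peptidases annotated to mitochondria or to an AAA complex, with hxkC left out, had a median carbon ratio of -0.87 in urea and -0.27 in ammonium. Over all genes the medians were -0.03 and -0.11. AN3459, annotated to several sites, was the member of this group at least 4-fold higher in urea, and AN1780, at -2.35 (-3.01 to -1.80), the one at least 4-fold lower. None was called in ammonium. Over all genes, 14.6% were higher and 15.2% lower in urea, and 8.33% and 7.01% in ammonium. With so few members these counts do not set the group apart. AN4557 and AN5588, of the m-AAA and i-AAA complexes that degrade misfolded inner-membrane proteins, had carbon ratios of -0.80 and -0.73 in urea. AN6193, an ATP-dependent peptidase with a mitochondrial annotation, had 150 CPM in fructose with urea, 521 in fructose with ammonium, 240 in glucose with urea and 325 in glucose with ammonium, and its nitrogen ratio in fructose, -1.98 (-2.31 to -1.68), was just short of 4-fold. The pitrilysin-type metalloprotease cym1 was level at -0.14 in urea and 0.05 in ammonium.

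The 3 members of the signal peptidase complex, which removes signal peptides as proteins enter the secretory path, had few counts in fructose with ammonium. AN1525 had 7 counts in fructose with ammonium against 86 in glucose with ammonium, AN9460 11 against 216 and AN11133 3 against 104. Their carbon ratios were -1.37 (-2.77 to -0.31), -2.05 (-3.11 to -1.22) and -2.77 (-5.21 to -1.32), of which the last 2 passed 4-fold. The call of AN9460 was lost with a prior count of 5, at -1.92, and with a joint scaling of the libraries, at -1.94. In urea they were 0.05, -1.40 and 0.19. The 3 vacuolar members, AN3918, AN10351 and the metalloaminopeptidase AN11070, had carbon ratios of 0.74, 0.99 and 0.35 in urea and of -0.13, -1.13 and -0.62 in ammonium, none past 4-fold.

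Of the cysteine peptidases, 0 of 5 passed 4-fold for carbon in urea, where 2 of 5 lay within 2-fold, and 1 of 6 did for carbon in ammonium. Over all genes, 14.6% were higher and 15.2% lower in urea, and 8.33% higher and 7.01% lower in ammonium. The calpain-like palB, which acts in the ambient pH pathway that activates PacC, had 139 CPM in fructose with urea, 45.7 in fructose with ammonium, 33.6 in glucose with urea and 59.1 in glucose with ammonium. Its carbon ratio was 1.76 (1.31 to 2.27) in urea and -0.41 (-1.09 to 0.20) in ammonium. AN3882 was the class's single call, lower in fructose with ammonium, with 1 count against 49 in glucose with ammonium and a ratio of -3.01 (-8.74 to -0.86). In the metallo class, admB, whose orthologs build the ascospore wall, had carbon ratios of 1.93 in urea and 0.96 in ammonium.

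The members that only mention a protease include regulators and a trafficking gene. The non-catalytic hexokinase hxkC, a regulator of extracellular proteases under carbon starvation, had 231 CPM in fructose with urea, 779 in fructose with ammonium, 120 in glucose with urea and 81.0 in glucose with ammonium. It was high in 1 library and its carbon ratio was 3.21 (2.98 to 3.47) in ammonium and 0.68 (0.39 to 0.98) in urea. Its relative xprF had 0.47 in urea and 0.23 in ammonium. The carbon repressor gene creA had 196, 154, 46.5 and 47.6 CPM in fructose with urea, fructose with ammonium, glucose with urea and glucose with ammonium, with ratios of 1.79 (1.41 to 2.21) in urea and 1.63 (1.23 to 2.06) in ammonium. Of vps24 and pigP, the ratios in urea were -0.14 and -1.42.

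Other genes of extracellular proteolysis were taken from a list of regulators, of which 10 were found. The symbols hxkD and mtfA matched no name given, and such genes may be listed under another name. Of these 10, xprF, hxkC and creA are members. Of the other 7, only xprG was at least 4-fold higher in fructose under urea or under ammonium, or in urea in fructose, and none was lower. This regulator of proteases under carbon starvation had 116 counts in fructose with urea, 14 in fructose with ammonium, 27 in glucose with urea and 13 in glucose with ammonium. Its carbon ratio was 2.84 (2.28 to 3.56) in urea and 2.18 (1.12 to 3.52) in ammonium. The regulator gene meaB was just short of 4-fold, with a carbon ratio of 1.997 in urea and a nitrogen ratio of 1.973 in fructose. Over all genes, 14.6% were at least 4-fold higher for carbon in urea, 8.33% for carbon in ammonium and 11.4% for nitrogen in fructose. With so few regulators these counts do not set the list apart. The nitrogen regulator gene areA had carbon ratios of 0.35 in urea and -0.17 in ammonium, and the pH regulator gene pacC 1.24 and 1.20. Of 4 peptide transporters, AN8903 had 611, 191, 92 and 42 counts in the order of libraries above, and AN8374 had 0, 53, 32 and 58.

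Of the enzymes of autolysis, which take apart the cell wall of starving mycelium, chiB and engA were high in 1 library. The chitinase gene chiB had 2094 counts in fructose with urea, 22 in fructose with ammonium, 52 in glucose with urea and 78 in glucose with ammonium. The glucanase gene engA had 1605, 105, 102 and 224 in the same order. Their carbon ratios were 6.09 and 4.75 in urea, and 0.38 and 1.11 in ammonium. The part of autolysis in the members' values was not tested.

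The genes closest to prtA in pattern were AN8467, AN5423, AN4345, AN7727 and mstA, with Pearson r above 0.99 over the 4 libraries, taken on log2(CPM + 1) among 3192 genes of at least 100 CPM in some library. With 4 points such values are common, and 118 genes reached 0.99. Among them were the members AN8445, creA and dppIV.

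On the antisense strand, reads made up a median of 23.8% of both strands over the 76 members with at least 100 counts, against 25.3% over all genes. None of these members had more than 50% antisense reads, against 3.21% of all genes. The highest shares were 44.8% for AN9460, 43.4% for AN8780, 43.2% for AN3377, 41.6% for AN3149 and 41.4% for AN5749. For prtA the antisense counts were 205 in fructose with urea, 87 in fructose with ammonium, 18 in glucose with urea and 36 in glucose with ammonium, in the order of its sense counts. Summed over members, antisense reads were 18.8% in fructose with urea, 23.3% in fructose with ammonium, 25.1% in glucose with urea and 27.3% in glucose with ammonium, against 24.6%, 27.8%, 26.6% and 28.9% over all genes.

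The authors' deposited table for carbon in urea gave an FDR of 0.05 or less to 21 members that were higher and 6 that were lower in fructose, of 84 listed, against 18.9% and 18.4% of all genes. For carbon in ammonium the authors' deposited table gave 12 higher and 3 lower of 83, against 9.78% and 5.52%. For nitrogen in fructose the authors' deposited table gave 8 higher and 10 lower of 86 in urea, against 9.98% and 11.5%, and for nitrogen in glucose the authors' deposited table gave 0 of 79 either way, against 0.791% and 0.217%. The nitrogen values, deposited as ammonium over urea, were turned.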

How the data were processed

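The authors deposited 4 sense and 4 antisense tables, 1 per comparison and strand, with whole-number read counts of 2 libraries per gene, per the file headers. Per the file headers, the authors added their log2 fold change, the mean expression in log2 CPM, and a p-value with its FDR. HTSeq, a read counter, and edgeR are named in the submitters' processing notes without a version, and the aligner, build and annotation count as not given in the sources used here, so no coordinates are printed. The deposited p-value rests on a biological coefficient of variation of 0.3, per the names of the deposited tables. The deposited tables leave out genes low in both libraries: the higher library had 10.4 CPM or more. Another 16 deposited columns of per-library values were not used.

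From the counts, log2 ratios were computed with edgeR TMM scaling per table (edgeR 4.0.16, R 4.3.3) and a prior count of 1, and lay within 0.0827 of the authors' values where both libraries had 20 counts or more; at counts near 0 they differ more. Exact Clopper-Pearson intervals (scipy 1.17.1, Python 3.11.15) use the counts without the prior. Genes at 0 are bounded against 3 counts. Alternatives were total scaling, DESeq2 1.42.0 size factors, a prior count of 5, no minimum, genes in all 4 tables and a 2-fold mark. The script was tested on simulated data.

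The members and lists were chosen with earlier results of these data known. The rule for naming covered prtA, dppIV, dppV, members with a symbol and the 8 highest and 8 lowest ratios per comparison. It also covered the 5 highest and 5 lowest nitrogen differences and the 3 most abundant of each class. Members at 0 counts in 1 library and the 5 highest antisense shares were covered too. Not every member under this rule is named above, and csnA, admA, fpaI, AN3470 and AN2689 are among those left out. Members named outside this rule, in groups by annotation, were chosen after their values were seen. RefSeq was used for names only and matched 85 of 87 members. Sequence features were not analysed here. Of the symbols listed, 10 were not matched. A gene of the list of autolysis enzymes is not reported here.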

Additional observations from a re-analysis of the deposited data

Results flagged for a closer look

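The following members had ratios that pointed in opposite directions in comparisons that share no library, by at least 2-fold each way. None of these differences was tested, since each value comes from 1 library per medium. Apart from scaling and prior count, the nitrogen and the carbon difference of a gene are the same contrast of the same counts. AN6487 and AN4286 are listed under both and are not separate observations there.

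For the nitrogen ratio, urea over ammonium, AN6487 differed by 4.51 on the log2 scale, fructose minus glucose, with 2.79 in fructose and -1.73 in glucose. AN4286 differed by 4.03, with 2.70 in fructose and -1.34 in glucose. The dipeptidyl-peptidase gene dppV differed by -3.37, with -1.22 in fructose and 2.15 in glucose. AN1706, with a predicted peptidase domain, differed by -2.08, with -1.03 in fructose and 1.06 in glucose.

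For the carbon ratio, fructose over glucose, AN1426 differed by 6.23, urea minus ammonium, with 3.85 in urea and -2.38 in ammonium. AN6487 differed by 4.70, with 1.37 in urea and -3.33 in ammonium, and AN4286 by 4.32, with 1.81 in urea and -2.51 in ammonium. The aspartic protease gene pepAc differed by -2.87, with -1.22 in urea and 1.65 in ammonium. The ratios of AN1426, AN6487 and AN4286 rest on 2, 2 and 1 counts in fructose with ammonium, while those of pepAc rest on 193 counts or more and those of dppV on 27 or more.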

How the results depend on the processing

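No paired analysis was possible because each medium has 1 library and no replicate. With a prior count of 5, the members at least 4-fold higher numbered 0 for nitrogen in glucose and 3 for nitrogen in fructose, and those lower numbered 3 for nitrogen in fructose and 3 for carbon in ammonium; this setting draws low counts towards 0. With a 2-fold mark, a wider limit by construction, the members higher and lower numbered 6 and 5 for nitrogen in glucose (7.15% and 4.31% of all genes), 23 and 19 for nitrogen in fructose (26% and 23.5%), 32 and 18 for carbon in urea (27% and 29.2%), and 19 and 12 for carbon in ammonium (19.2% and 22.6%). The metallo median for carbon in urea was 0.58 with total scaling and 0.51 with a joint TMM scaling of the 4 libraries. Total scaling moved the median of all genes by 0.19 for nitrogen in fructose and 0.26 for carbon in urea, where 19 members were higher, and joint scaling by 0.20 for carbon in urea, where 16 were, and 0.11 for carbon in ammonium. The share of all genes past 4-fold was not computed for the other scalings or for the prior count of 5. No called ratio changed sign. Class medians close to 0 did: with total scaling the metallo median was -0.02 for nitrogen in glucose and 0.13 for nitrogen in fructose, where the dipeptidyl median was 0.17, and with joint scaling the medians for carbon in ammonium were 0.00 for serine and 0.06 for the unstated type. The joint scaling, the set without the 5 genes that only mention a protease and the set with "proteinase" genes were chosen after seeing the data. Depth limits the fructose values most: of the members called, the whole counting interval lay past 4-fold for 3 higher and 3 lower for nitrogen in fructose, 11 and 3 for carbon in urea, and 9 and 0 for carbon in ammonium.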
